A study of Mus musculus with 14 samples.

Results

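The MHC class II antigen presentation genes examined here are H2-Aa, H2-Ab1, H2-Eb1, H2-DMa, H2-DMb1, Cd74 and Ciita. They were listed by name for their function, but with earlier results of these data known. All 7 were found among the 35275 genes of the table. All 7 passed the filter on low values, 1 FPKM or more in 3 or more of the 14 animals, which 13079 genes passed. FPKM stands for fragments normalised to gene length and to library depth.

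RNA of brown adipose tissue from 14 mice, 8 weeks old and of strain C57BL/6, was sequenced, with 1 library per animal. All 14 mice carried floxed alleles of Lrpprc (LrpprcFF), whose protein binds RNA inside mitochondria. The knockouts also carried Ucp1-Cre, which acts in cells that express the brown fat gene Ucp1, and the controls carried no Cre. At room temperature (22 °C) there were 4 controls and 4 knockouts, and at thermoneutrality (30 °C) 3 controls and 3 knockouts. Brown adipocytes are the labelled cell type, but the RNA came from homogenized tissue and no isolation of cells is described, so blood, immune and vascular cells were part of the sample.

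MHC class II molecules present peptides from endocytosed proteins to CD4 T cells. They are made mainly by dendritic cells, macrophages and B cells, although interferon gamma can induce them in other cell types. H2-Aa and H2-Ab1 encode the alpha and beta chains of the I-A molecule, and H2-Eb1 the beta chain of I-E. Cd74 encodes the invariant chain, which fills the peptide groove and guides the molecule to endosomes. H2-DMa and H2-DMb1 encode chains of H2-M, which exchanges the last invariant chain fragment for peptides. Ciita encodes the transactivator that switches on the other genes; it binds no DNA itself and is recruited by proteins on a shared promoter module whose X box and CCAAT-containing Y box lie a short distance before the start site.

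That module is shown because it is the sequence through which Ciita acts on the other members. RefSeq promoter windows (build GRCm38.p6, from 250 bases before to 50 after a start site) were matched by symbol for 4 of the 7 members, H2-Aa, H2-Eb1, H2-DMb1 and H2-DMa, the last with a pair of windows. H2-Ab1, Cd74 and Ciita were not matched. The letters ACNGATG (core of the X box), ATTGG (core of the Y box) and CTGATTGG (a longer Y box that contains the core) were searched on both strands. A pair was counted where ACNGATG was followed on the same strand by ATTGG after a gap of 10 to 30 bases. Stretches of the windows of 3 members are printed 5′ to 3′ on the strand of the gene. Those of H2-Eb2 and H2-DMb2, class II genes outside the 7 that held such a pair, are printed beside them. Capitals mark matches to the X core, the Y core or the Y core's reverse complement.
H2-Eb1: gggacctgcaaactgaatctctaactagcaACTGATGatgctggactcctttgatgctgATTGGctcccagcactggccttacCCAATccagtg
H2-DMb1: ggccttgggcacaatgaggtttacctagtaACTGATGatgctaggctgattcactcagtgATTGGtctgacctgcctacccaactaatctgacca
H2-Aa: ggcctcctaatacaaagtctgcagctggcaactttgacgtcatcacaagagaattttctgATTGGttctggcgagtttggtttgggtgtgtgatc
H2-Eb2: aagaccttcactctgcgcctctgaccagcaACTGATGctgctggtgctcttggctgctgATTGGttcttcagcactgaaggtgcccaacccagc
H2-DMb2: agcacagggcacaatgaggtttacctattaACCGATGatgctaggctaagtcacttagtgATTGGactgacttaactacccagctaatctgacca
The stretch of H2-Eb1 lies at chr17:34305749-34305842 on the plus strand, that of H2-DMb1 at chr17:34153070-34153164 on the plus strand, and that of H2-Aa at chr17:34287837-34287931 on the minus strand. The stretch of H2-Eb2 lies at chr17:34325516-34325609 and that of H2-DMb2 at chr17:34145099-34145193, both on the plus strand. H2-Eb1 held the X core at position -88 from the start site and the Y core at -59, with 22 bases between them. H2-DMb1 held them at -91 and -61, with 23 bases between them. Such a pair was in 0.158% of the 32851 windows of the table, while the X core alone was in 9.85%, the Y core alone in 37.4% and the longer Y box in 4.1%. H2-Aa held the longer Y box, with its core at -48, and its only match to the X core was on the opposite strand at -232, so these letters formed no pair in that window. H2-DMa held the Y core at -198 in 1 of its windows and no X core in either. The windows of H2-Oa and H2-Ob, also class II genes outside the 7, held no pair and are not printed. H2-Oa held the X core at -137 and the Y core at -43, and H2-Ob held the Y core at -57 and no X core. These matches describe letters only and show nothing about binding.

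Each library held 15.9 to 21.3 M fragments, a depth read off the smallest steps of its FPKM. Lrpprc was at 30.8% of the control mean in knockouts at 22 °C and at 27% at 30 °C. Xist was at 0.0 to 0.0141 FPKM in the 8 animals at 22 °C and at 9.01 to 18.4 FPKM in the 6 at 30 °C, and the Y-linked Ddx3y was at 14.5 to 23.1 FPKM at 22 °C and 0.0 to 0.0244 FPKM at 30 °C, so that sex and housing temperature cannot be told apart: each comparison of temperatures, and the difference of the knockout effect between temperatures, may equally be one between sexes. The brown fat gene Ucp1 was high in every animal (299 to 3680 FPKM). Skeletal muscle markers summed to 19.6 FPKM in control 3 at 30 °C and to 336 to 11600 FPKM in the other animals. Knockout 3 at 30 °C had lymph node markers that summed to 37.2 FPKM, against 1.58 to 7.83 FPKM in the others, with Ccl21a at 23.3 FPKM and Glycam1 at 5.47 FPKM. Values without knockout 3 or control 3 at 30 °C, where given, stand beside the value over all animals. In the 22 °C controls, 2 of the 4 animals have identifiers that begin with R, while all other animals have E.

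The 7 genes had the same order of group means: lowest in controls at 22 °C, then knockouts at 22 °C, then controls at 30 °C, and highest in knockouts at 30 °C. Their summed level in FPKM as deposited was 84.2 to 224 FPKM in controls and 217 to 366 FPKM in knockouts at 22 °C. It was 341 to 1020 FPKM in controls and 1120 to 2580 FPKM in knockouts at 30 °C. On the FPKM scale, which is per length, Cd74 had the highest level of the 7 in all 14 animals and Ciita the lowest. The numbers of reads behind these values ranged from 23 for Ciita in control 1 at 22 °C to 28631 for Cd74 in knockout 1 at 30 °C.

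**Figure D1:**
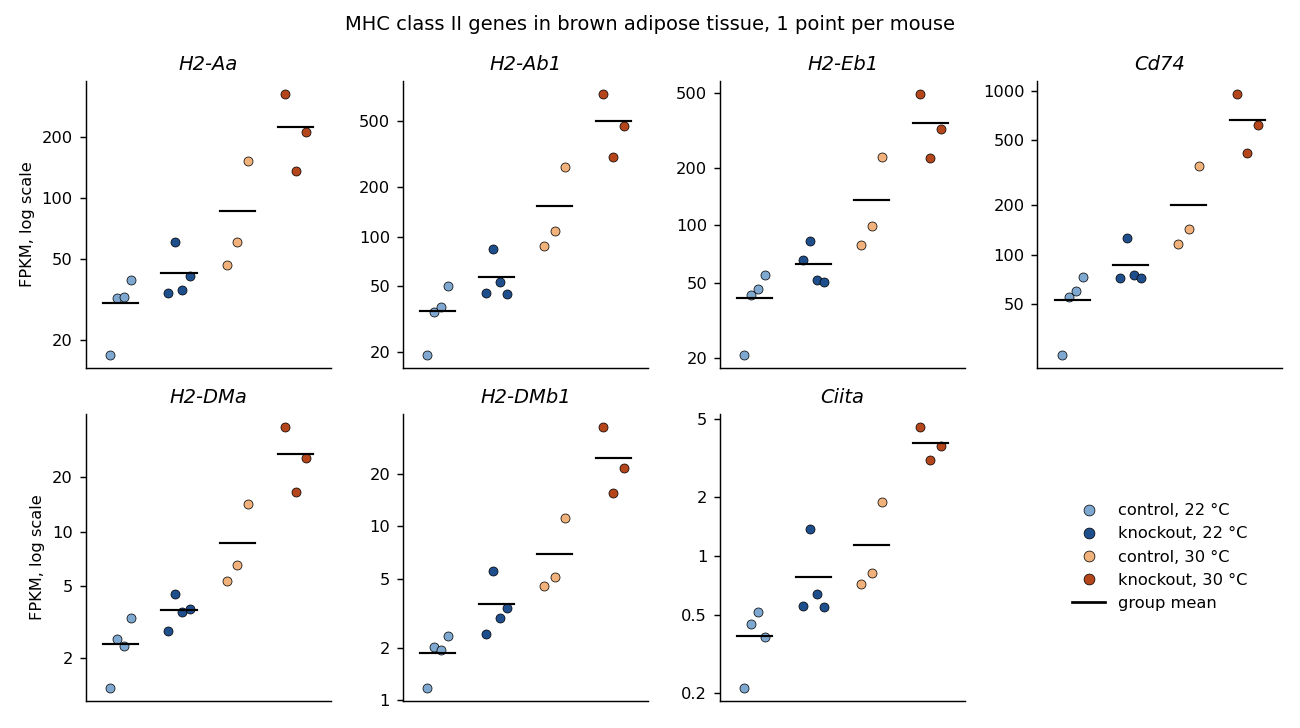
FPKM (log scale) of each of the 7 genes, with 1 point per mouse and bars at the means of the 4 groups (4, 4, 3 and 3 mice). All 6 mice at 30 °C lie above all controls at 22 °C for each gene. Within 30 °C the highest control, mouse 3, reaches 345 FPKM for Cd74 as deposited, against 419 to 952 FPKM in the knockouts. After scaling the genotypes overlap for Cd74 at 30 °C, with control 3 at 8.51 and knockout 2 at 8.46 in log2(scaled FPKM + 1).

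Among the peptide-binding chains, H2-Aa had 16.8, 32.2, 32.4 and 39.4 FPKM in controls 1 to 4 at 22 °C and 34.0, 60.9, 35.3 and 41.2 FPKM in the knockouts. At 30 °C it had 46.9, 60.7 and 153 FPKM in controls 1 to 3 and 328, 137 and 212 FPKM in the knockouts. Control 3 therefore lay above knockout 2 at 30 °C, and the genotypes overlapped at both temperatures. H2-Ab1 had 19.3, 35.0, 37.3 and 50.3 FPKM in controls and 45.6, 84.4, 53.4 and 44.9 FPKM in knockouts at 22 °C. It had 87.6, 108 and 262 FPKM in controls and 724, 300 and 466 FPKM in knockouts at 30 °C. The genotypes overlapped at 22 °C but not at 30 °C for this chain in FPKM as deposited. H2-Eb1 had 20.8, 43.2, 46.1 and 54.9 FPKM in controls and 65.5, 82.4, 51.3 and 50.6 FPKM in knockouts at 22 °C. At 30 °C it had 79.1, 98.8 and 229 FPKM in controls and 491, 227 and 321 FPKM in knockouts, with control 3 just above knockout 2. The alpha chain partner of H2-Eb1 is represented in the table by H2-Ea-ps, which was listed at 0 in all 14 libraries, where a count of 0 allows up to 3 reads each. C57BL/6 mice are known to make no functional I-E alpha chain.

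Cd74, the invariant chain, had 24.6, 55.5, 59.9 and 73.7 FPKM in controls and 72.2, 127, 75.0 and 72.6 FPKM in knockouts at 22 °C. It had 116, 144 and 345 FPKM in controls and 952, 419 and 616 FPKM in knockouts at 30 °C. Knockout 2 was the high animal at 22 °C and knockout 1 the high animal at 30 °C, as they were for the peptide-binding chains.

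The peptide-exchange chains were at lower levels. H2-DMa had 1.38, 2.55, 2.33 and 3.34 FPKM in controls and 2.82, 4.53, 3.59 and 3.75 FPKM in knockouts at 22 °C, and 5.37, 6.54 and 14.2 FPKM in controls and 37.9, 16.6 and 25.5 FPKM in knockouts at 30 °C. H2-DMb1 had 1.18, 2.02, 1.95 and 2.33 FPKM in controls and 2.4, 5.53, 2.95 and 3.4 FPKM in knockouts at 22 °C, and 4.52, 5.1 and 11.1 FPKM in controls and 37.5, 15.6 and 21.6 FPKM in knockouts at 30 °C. In FPKM as deposited every knockout lay above every control of its temperature for H2-DMb1, while for H2-DMa this held at 30 °C only.

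The transactivator Ciita had 0.214, 0.449, 0.522 and 0.387 FPKM in controls and 0.559, 1.38, 0.645 and 0.55 FPKM in knockouts at 22 °C. It had 0.719, 0.82 and 1.88 FPKM in controls and 4.58, 3.1 and 3.66 FPKM in knockouts at 30 °C. Every knockout lay above every control of its temperature in FPKM as deposited. Ciita was the least abundant of the 7, and the pseudocount of 1 used for the tests understates its fold changes more than those of the more abundant members.

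The comparison of knockouts with controls at 30 °C asks whether loss of Lrpprc in Ucp1-expressing cells went with a change in class II transcripts at thermoneutrality. Of the 7 genes, 5 rose in the knockouts (limma, Benjamini-Hochberg adjusted p under 0.05 over all genes tested), where 8.82% of all 13079 genes rose. Cd74 was 663 ± 270 FPKM (SD, n = 3) in knockouts and 202 ± 125 FPKM (SD, n = 3) in controls, a log2 fold change of 1.5 (SE 0.44, limma adjusted p = 0.0370). These fold changes are on the scale of log2(scaled FPKM + 1), where scaling removes differences between libraries over nuclear genes. H2-Ab1 was 496 ± 214 against 153 ± 95.7 FPKM (SD, n = 3 each), a log2 fold change of 1.48 (SE 0.43, limma adjusted p = 0.0355). H2-DMb1 was 24.9 ± 11.3 against 6.9 ± 3.62 FPKM (SD, n = 3 each), a log2 fold change of 1.44 (SE 0.34, limma adjusted p = 0.0146). H2-DMa was 26.7 ± 10.7 against 8.71 ± 4.81 FPKM (SD, n = 3 each), a log2 fold change of 1.27 (SE 0.33, limma adjusted p = 0.0243). Ciita was 3.78 ± 0.749 against 1.14 ± 0.642 FPKM (SD, n = 3 each), a log2 fold change of 0.98 (SE 0.22, limma adjusted p = 0.0105).

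H2-Aa and H2-Eb1 did not pass the test at 30 °C. H2-Aa was 226 ± 96 against 86.8 ± 57.5 FPKM (SD, n = 3 each), with a log2 fold change of 1.17 (95% interval 0.26 to 2.08, limma adjusted p = 0.0823). H2-Eb1 was 346 ± 134 against 136 ± 81.2 FPKM (SD, n = 3 each), with a log2 fold change of 1.13 (95% interval 0.27 to 2.0, limma adjusted p = 0.0781). The median log2 fold change of the 7 was 1.27, beside 0.064 over all genes tested. After scaling, every knockout lay above every control for 2 of the 7, H2-DMb1 and Ciita, which 22.0% of all genes did. In FPKM as deposited this held for 5 of the 7 (all but H2-Aa and H2-Eb1) and for 50% of all genes. The count of 5 depended on single animals. It was 0 without knockout 1, the highest, 1 without control 1 or without control 2, 2 without knockout 3 (H2-DMb1 and Ciita), 7 without control 3 and 7 without knockout 2. It was also 0 when the 2 groups were fitted alone, although all 7 estimates stayed positive in every one of these fits. In bulk tissue, more cells that make a transcript and more transcript per cell cannot be told apart.

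The same comparison at 22 °C gave no call. By limma, 0 of the 7 passed, 0 had an unadjusted p under 0.05, and voom on recovered reads also called 0, where 1.97% of all genes were called in either direction. All 7 estimates were positive, from 0.22 for H2-Aa to 0.45 for Cd74, with a median of 0.34 beside 0.002 over all genes. The 95% interval ran from -0.37 to 1.26 for Cd74, from -0.40 to 1.19 for H2-Ab1 and from -0.17 to 0.64 for Ciita. A 2-fold rise (a log2 fold change of 1) lay within the interval for Cd74 and H2-Ab1. For Ciita the pseudocount makes a 2-fold rise less than 1 on this scale, so its interval does not exclude one. Its mean as deposited was 0.784 FPKM in knockouts and 0.393 FPKM in controls. In FPKM as deposited every knockout lay above every control for 2 of the 7, H2-DMb1 and Ciita, which 24.8% of all genes did, and after scaling for 0 of the 7. The estimates rested partly on control 1, which was lowest for all 7 genes. Without it the median of the 7 was 0.15 and H2-Aa was at -0.01.

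The test of whether the knockout effect differed between the temperatures called 0 of the 7 and 0.0% of all genes by limma. All 7 differences (effect at 22 °C minus effect at 30 °C) were negative, from -1.08 for H2-Ab1 to -0.75 for Ciita, with a median of -1.01 beside -0.054 over all genes. At an unadjusted p under 0.05 the count was 3 of 7 (H2-DMa, H2-DMb1 and Ciita) and 1692 of all 13079 genes. For Ciita the 95% interval of the difference was -1.36 to -0.13 (limma adjusted p = 0.294), and for Cd74 it was -2.30 to 0.20 (limma adjusted p = 0.481). A knockout effect called at 30 °C and not at 22 °C is therefore not shown to differ between the temperatures.

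The comparison of 22 °C with 30 °C within each genotype asks how class II transcripts differed with housing. In controls all 7 fell at 22 °C, where 20.5% of all genes fell by limma. The log2 fold change was -1.88 for H2-Ab1 (SE 0.40, limma adjusted p = 0.00352), -1.73 for Cd74 (SE 0.41, limma adjusted p = 0.00597) and -1.52 for H2-Eb1 (SE 0.38, limma adjusted p = 0.00770). H2-DMa and H2-DMb1 had -1.38 and -1.34, and H2-Aa had -1.26 (limma adjusted p = 0.0232). Ciita had the smallest change on this scale, -0.58 (SE 0.20, limma adjusted p = 0.0377), where the pseudocount understates it. Its mean as deposited was 0.393 FPKM at 22 °C and 1.14 FPKM at 30 °C, and that of H2-Aa was 30.2 and 86.8 FPKM. The ratio of Ciita to H2-Aa differed between these groups by -0.08 on the log2 scale. The median was -1.38, beside -0.050 over all genes. The temperatures did not overlap after scaling for any of the 7, while 23.6% of all genes were separated in that direction. The calls of H2-Aa and Ciita were lost without control 3 at 30 °C, at -0.77 (limma adjusted p = 0.115) and -0.34 (limma adjusted p = 0.189). They were also lost without control 1 at 22 °C, and the call of Ciita without control 2 or 4 at 22 °C, without both controls with R identifiers, with no filter on low values, after quantile normalization and with only the groups compared.

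In knockouts all 7 fell at 22 °C as well, where 29.3% of all genes fell by limma. H2-Ab1 had a log2 fold change of -2.95 (SE 0.40, limma adjusted p = 0.000129) and Cd74 of -2.78 (SE 0.41, limma adjusted p = 0.00021). H2-DMa, H2-DMb1, H2-Eb1 and H2-Aa lay between -2.39 and -2.22, and Ciita had -1.32 (SE 0.20, limma adjusted p = 0.000262). The median was -2.34, beside -0.072 over all genes. The temperatures did not overlap after scaling for any of the 7, while 31.7% of all genes were separated in that direction. All 7 calls held without each animal in turn, including knockout 3 at 30 °C, without which Cd74 was at -2.80. The temperature comparisons and the genotype comparisons share animals, so their values stand side by side and are not independent.

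**Figure D2:**
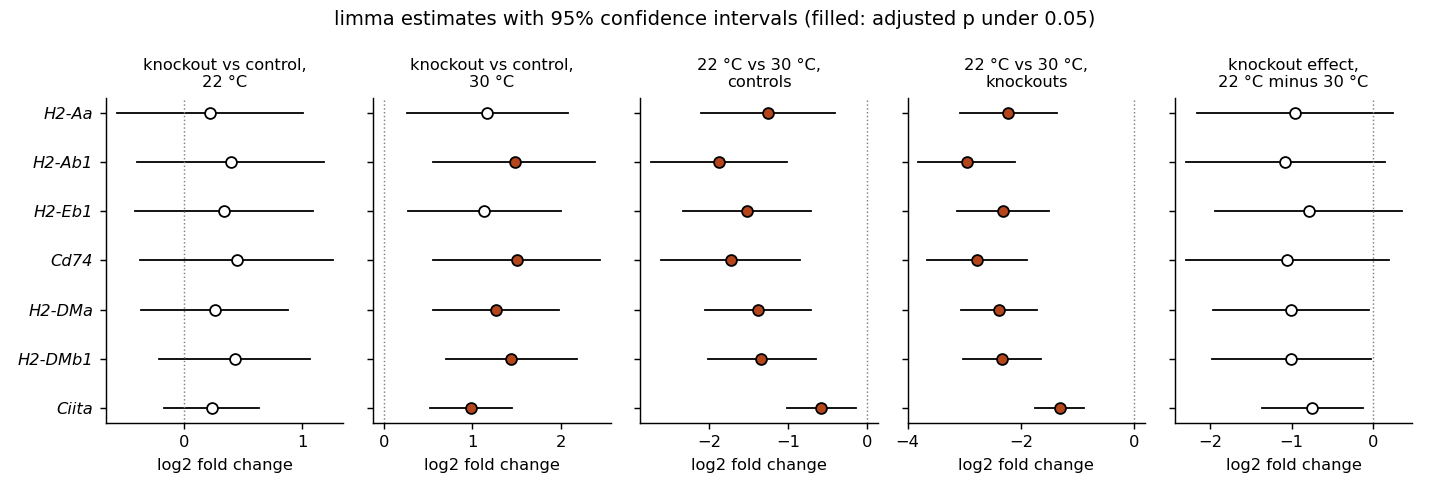
Limma log2 fold changes of the 7 genes with 95% confidence intervals in the 4 comparisons and, in the last panel, the difference of the knockout effect (22 °C minus 30 °C); filled points have an adjusted p under 0.05. No point is filled for genotype at 22 °C or for the difference, 5 are filled for genotype at 30 °C, and all 7 are filled in both temperature comparisons.

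Other genes of the class II locus were at low levels. H2-DMb2, a second H2-M beta chain whose promoter stretch is printed above, was the only one of 5 listed genes that passed the filter. It had 0.198 to 0.974 FPKM at 22 °C, 1.05 to 2.76 FPKM in controls and 2.02 to 7.07 FPKM in knockouts at 30 °C. It fell at 22 °C in controls (log2 fold change -0.95, limma adjusted p = 0.0238) and in knockouts (-1.42, limma adjusted p = 0.00176), and its genotype estimate at 30 °C was 0.58 (SE 0.32, limma adjusted p = 0.262). Without knockout 3 that estimate was 0.18 (limma adjusted p = 0.762) and the change in knockouts -1.03 (limma adjusted p = 0.00867), and without control 3 the change in controls was -0.70 (limma adjusted p = 0.109). H2-Ob, a chain of H2-O, which restrains H2-M in B cells, was at 0.0731 to 1.02 FPKM in 13 animals and at 4.14 FPKM in knockout 3 at 30 °C.

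Among 12 transcription factors that bind class II promoters or act on Ciita, 3 rose in knockouts at 30 °C, 0 fell and 9 did not pass. Of all genes, 8.82% rose in that comparison. The 3 were Spi1 (PU.1, a factor of myeloid and B cells; log2 fold change 2.33, limma adjusted p = 0.00462), Irf8 (an interferon regulatory factor of myeloid cells; 1.56, limma adjusted p = 0.0165) and Nfya (a subunit of the complex that binds CCAAT; 0.59, limma adjusted p = 0.00531). Rfx5, a subunit of the complex on the X box, had 0.04 (SE 0.15, limma adjusted p = 0.903). Of the 11 tested genes of a list for antigen processing, not all of them particular to class II, 4 rose at 30 °C. They were the protease Ctss, which degrades the invariant chain (2.87, limma adjusted p = 0.0147), Lgmn (1.36, limma adjusted p = 0.00809), Wdfy4 (0.92, limma adjusted p = 0.0112) and Ctsl (0.57, limma adjusted p = 0.0342). Ifi30, a reductase of endosomes, had 1.09 (limma adjusted p = 0.0738). The medians of the regulators and of the processing genes were 0.02 and 0.57. At 22 °C limma called 0 genes of either list between genotypes, with 2 of each at an unadjusted p under 0.05. Of all 13079 genes, 2060 had an unadjusted p under 0.05 in that comparison, so these counts do not set the lists apart. Without knockout 3 the calls at 30 °C were 3 of 12 and 3 of 11, the call of Ctsl being lost (0.47, limma adjusted p = 0.137). Without control 3 they were 3 of 12 and 4 of 11, with Ifi30 called in place of Ctsl.

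Of the 8 tested genes of the interferon gamma pathway, 1 rose at 30 °C, the receptor kinase Jak1 (0.47, limma adjusted p = 0.0152). This was near the share of all genes that rose, 8.82%. By limma 3 of the 8 had an unadjusted p under 0.05 at 30 °C, beside 3706 of all 13079 genes, and the median was 0.06. Jak1 was also the 1 of the 8 called at 22 °C (0.42, limma adjusted p = 0.0457), where 1.97% of all genes were called in either direction. Jak1 was not called at 30 °C without knockout 3 (0.40, limma adjusted p = 0.0729). Without control 3, 2 of the 8 were called at 30 °C, Jak1 and Socs1 (1.33, limma adjusted p = 0.0431). At 22 °C against 30 °C, Socs1 and Ifngr2 fell in both genotypes, where 20.5% of all genes fell in controls and 29.3% in knockouts. Without control 3 Socs1 was still called in controls, and without knockout 3 both were in knockouts. Ifng itself did not pass the filter and reached at most 0.316 FPKM. Of the 4 tested costimulation genes 0 were called at 30 °C by limma. An unadjusted p under 0.05 was found for 2 of the 4, beside 3706 of all 13079 genes. Cd86, a ligand of the T cell receptor CD28, was at 0.44 (limma adjusted p = 0.160), and without control 3 Cd86 was called. MHC class I presentation, which serves peptides from inside the cell, had 0 of 12 genes called between genotypes at 30 °C by limma and 0 at an unadjusted p under 0.05, with a median of 0.15. Its light chain B2m had 0.22 (SE 0.33, limma adjusted p = 0.721). At 22 °C against 30 °C, 9 of the 12 class I genes fell in controls and 10 in knockouts, with medians of -0.99 and -1.12. Without control 3 at 30 °C 2 of the 12 fell in controls, with a median of -0.67, and without knockout 3 it was 10 of the 12 in knockouts. No test of a difference between the class I and class II lists was made.

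Markers of cells that make class II were compared beside these results, and their part in the results was not tested. Of 12 genes listed as macrophage markers, 10 rose in knockouts at 30 °C, where 8.82% of all genes rose, with a median of 1.52. The list and the 10 include Ptprc, which all leukocytes express. Without knockout 3 the count was 8 (Ptprc and Cx3cr1 lost) and without control 3 it was 10. Their summed level was 86.7 to 233 FPKM in controls and 457 to 1080 FPKM in knockouts. Adgre1, which encodes F4/80, had a log2 fold change of 2.09 (SE 0.40, limma adjusted p = 0.00556), and the lysosomal Cd68 of 2.61 (limma adjusted p = 0.00447). At 22 °C 0 of the 12 were called by limma, with 3 at an unadjusted p under 0.05, beside 2060 of all 13079 genes. Their sums at 22 °C were 38.1 to 76.9 FPKM in controls and 83.2 to 146 FPKM in knockouts.

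Of 6 tested dendritic cell markers, 1 rose in knockouts at 30 °C, where 8.82% of all genes rose. It was the integrin Itgax (2.27, limma adjusted p = 0.00724), which macrophages of adipose tissue can also express. The summed level of all 12 listed was 12.5 to 23.2 FPKM in controls and 30.9 to 57.9 FPKM in knockouts. The defining Flt3 was at 0.0186 to 0.591 FPKM in all animals, and Zbtb46 had 0.25 (SE 0.18, limma adjusted p = 0.400). Of 4 tested B cell markers, 1 rose, Cd22 (1.08, limma adjusted p = 0.0128), and without knockout 3 none did (Cd22 at 0.78, limma adjusted p = 0.0523). The sum of the 10 listed was 16.1 to 21.0 FPKM in controls and 42.9, 17.3 and 83.8 FPKM in knockouts 1 to 3. Of 8 tested T cell markers limma called 0 between genotypes at 30 °C, with 0 at an unadjusted p under 0.05, and their sum over 12 listed genes was 9.6 to 32.9 FPKM in controls and 26.2, 11.8 and 54.8 FPKM in knockouts. Of 5 tested monocyte and neutrophil markers and 6 endothelial markers limma called 0, with 0 at an unadjusted p under 0.05. Without control 3, 2 of the monocyte and neutrophil markers rose, Ccr2 and Csf3r. Of 8 brown adipocyte markers 4 fell in knockouts at 30 °C (Ucp1, Adipoq, Fabp4 and Cidea), where 5.29% of all genes fell. The other 4 were not called, and 2 of the 8 estimates were positive, the highest at 0.98. Dio2, not called, was at 5.5 to 11.5 FPKM in knockouts and 0.885 to 8.05 FPKM in controls. Ucp1 was at -1.31 (limma adjusted p = 0.0302). Without knockout 3, and also without control 3, 2 fell (Adipoq and Fabp4). Over all animals, the sum of the 8 was 10800 to 13200 FPKM in controls and 7390 to 9420 FPKM in knockouts. Of 6 skeletal muscle markers limma called 0 in each comparison, with 0 at an unadjusted p under 0.05, and their median at 30 °C was 1.99 over all animals and -0.63 without control 3. At 22 °C against 30 °C, 5 of 12 macrophage markers fell and 1, Cd163, rose in controls, while 10 fell and Cd163 rose in knockouts. Of all genes, 20.5% fell in controls and 29.3% in knockouts. Without control 3 at 30 °C 2 fell in controls, and without knockout 3 9 fell in knockouts. Of the T cell markers 4 of 8 fell in controls and 5 in knockouts, and of the B cell markers 1 of 4 and 4 of 4. The 1 of 4 in controls was near the share of all genes. Without control 3 limma called 0 of either in controls, and without knockout 3 it called 3 of 8 and 4 of 4 in knockouts. The regulators Spi1, Irf8 and Rfx5 fell in both genotypes, as did Ctss, Cd63 and Wdfy4 of the processing genes. In controls these were 3 of 12 regulators and 3 of 11 processing genes, near the share of all genes. Creb1 (0.73 in controls and 0.60 in knockouts) and Sppl2a (0.83 and 0.59) rose in both genotypes, and Nfyc rose in knockouts (0.67). Without control 3, Spi1 and Cd63 of those that fell were still called in controls.

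**Figure D3:**
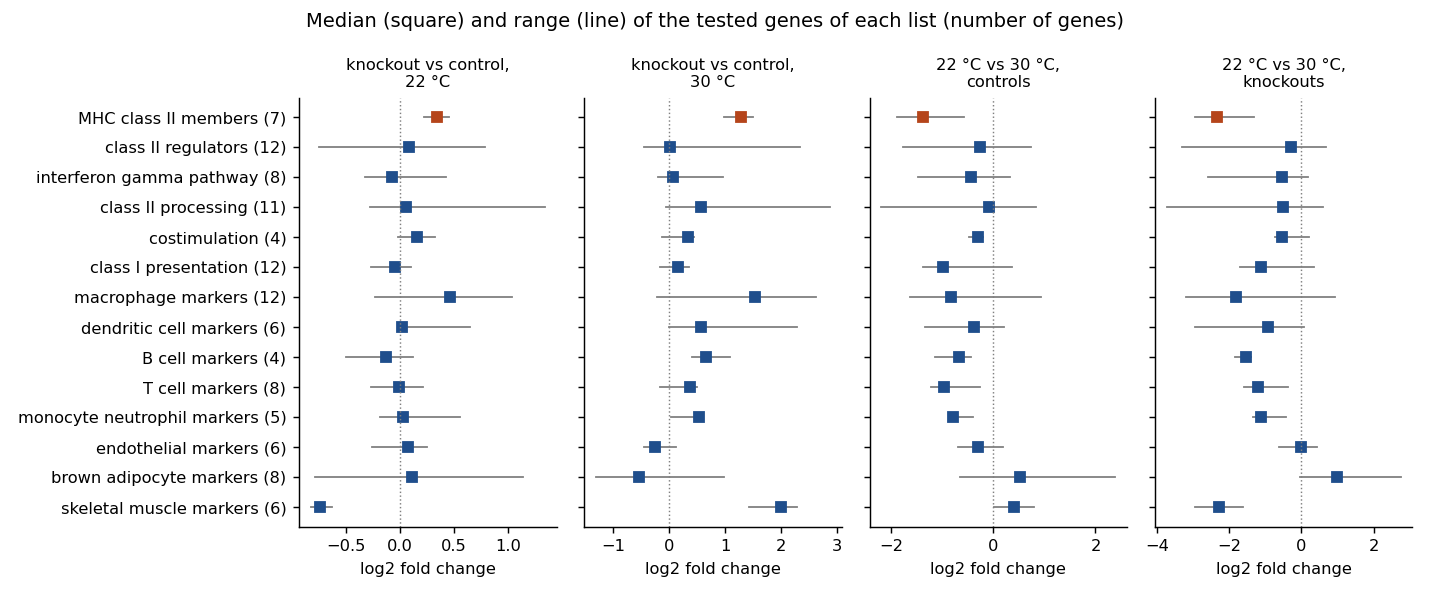
Median (square) and range (line) of limma log2 fold changes over the tested genes of each list in the 4 comparisons, with the number of tested genes in brackets and the 7 class II genes in red. For genotype at 30 °C the class II median is 1.27, with macrophage markers at 1.52, class I presentation at 0.15 and skeletal muscle markers, of which 0 of 6 were called, at 1.99 (-0.63 without control 3).

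The 7 genes also moved together among animals of one group. Over 14 animals, the Pearson correlation of deviations from the group means was 0.849 to 0.987 for the 21 pairs of members, with a median of 0.948. Without knockout 3 at 30 °C the range was 0.85 to 0.987, and without control 3 it was 0.739 to 0.98. The median correlation with the mean of the members was 0.032 over 13007 other tested genes that have a symbol. All members of a pair share the library, its depth and its cell makeup. The 5 genes outside the set with the highest correlation to the members' mean were Selplg (0.982), Ptpn7 (0.973), Phf11b (0.973), Cd52 (0.971) and Dock2 (0.965). Without knockout 3 or without control 3 these 5 correlations were 0.942 to 0.984. Selplg encodes the P-selectin ligand of leukocytes, Cd52 a surface glycoprotein of leukocytes, and Ptpn7 and Dock2 a phosphatase and an exchange factor of blood cells. Selplg was at 0.468 to 1.41 FPKM in controls and 1.62 to 3.36 FPKM in knockouts at 22 °C. At 30 °C it was at 2.86 to 9.46 FPKM in controls and 12.2 to 31.3 FPKM in knockouts.

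Levels were also set against Ptprc, which encodes the pan-leukocyte antigen CD45, and against Adgre1, as ratios of FPKM within a library. These ratios were chosen after the values were seen. Relative to Ptprc, Cd74 had 60.8, 100 and 58.9 in controls and 78.6, 68.0 and 61.9 in knockouts at 30 °C. For all 7 genes the genotypes overlapped in this ratio at 30 °C, and the log2 differences of knockouts from controls were -0.40 to 0.03 (-0.31 to 0.16 without knockout 3, -0.55 to -0.17 without control 3). Between 22 °C and 30 °C in knockouts, the ratio to Ptprc was lower at 22 °C without overlap for 4 of 7 genes, as it was for 1.24% of all genes, by up to 0.80 on the log2 scale for H2-Ab1 (exact two-sided permutation p = 0.0571, the smallest that 4 against 3 animals allow; adjusted p = 0.32 over 28 tests). The other 3 of the 4 were H2-DMa, H2-DMb1 and Cd74. In controls this held for 1 of the 7, H2-Ab1, and for 0.918% of all genes, and for 3 of the 7 without control 3. No ratio to Ptprc passed after adjustment in the 28 tests.

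Relative to Adgre1, Cd74 had 61.0, 77.1 and 56.7 in controls and 31.8, 33.8 and 34.0 in knockouts at 30 °C. Every knockout lay below every control at 30 °C in this ratio for all 7 genes, as it did for 88.0% of all genes. Adgre1 itself was at 1.87 to 6.08 FPKM in controls and 12.4 to 29.9 FPKM in knockouts as deposited. The log2 differences were -1.32 for H2-Eb1 to -0.88 for H2-DMb1 (-1.33 to -0.86 without knockout 3, -1.42 to -1.04 without control 3). Each gave an exact two-sided permutation p of 0.1, the smallest that 3 against 3 animals allow (adjusted p = 0.213 over 28 tests), so this design could not reach 0.05. At 22 °C the log2 differences were -0.80 to -0.38, the genotypes overlapped for all 7, and 0 of 7 had an exact permutation p under 0.05. Between 22 °C and 30 °C in knockouts the ratio was higher at 22 °C without overlap for 2 of 7, H2-Aa (0.51) and Ciita (0.50), and for 87.2% of all genes.

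Ratios of the other 6 members to H2-Aa were compared last, and 0 of 24 passed after adjustment (smallest adjusted p = 0.137, exact permutation). These ratios were not planned beforehand either. In the fit at 30 °C H2-Aa had a smaller change (1.17) than H2-Ab1 (1.48), so the ratios restate differences of the same values. H2-Ab1 relative to H2-Aa, which encode the partner chains of I-A, was 1.15, 1.09, 1.15 and 1.28 in controls and 1.34, 1.39, 1.51 and 1.09 in knockouts at 22 °C. It was 1.87, 1.77 and 1.72 in controls and 2.21, 2.18 and 2.2 in knockouts at 30 °C. All animals at 30 °C lay above all animals at 22 °C, and knockouts lay above controls at 30 °C. The share of all genes separated in a ratio to H2-Aa was not computed, so these separations have no background beside them. The log2 difference between temperatures was -0.62 in controls and -0.73 in knockouts (p = 0.0571 each by exact two-sided permutation, the lowest that 4 against 3 animals allow; adjusted p = 0.137 over 24 tests). Between genotypes at 30 °C it was 0.30 (p = 0.1 by exact two-sided permutation, the lowest that 3 against 3 allow; adjusted p = 0.16). Cd74 relative to H2-Aa showed the same order at 30 °C, with 2.48, 2.38 and 2.26 in controls and 2.9, 3.05 and 2.91 in knockouts. H2-DMa and H2-DMb1 relative to H2-Aa were also higher in knockouts at 30 °C without overlap (log2 differences 0.18 and 0.39). Cd74, H2-DMa and H2-DMb1 relative to H2-Aa were lower at 22 °C than at 30 °C without overlap in both genotypes. At 22 °C only H2-DMb1 relative to H2-Aa separated the genotypes (0.37, exact two-sided permutation p = 0.0286, adjusted p = 0.137). H2-Eb1 relative to H2-Aa overlapped between genotypes at both temperatures. Ciita relative to H2-Aa differed by -0.08 between temperatures in controls and by -0.02 in knockouts on the log2 scale, and both pairs of groups overlapped (exact permutation, adjusted p = 0.835 and 0.971).

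**Figure D4:**
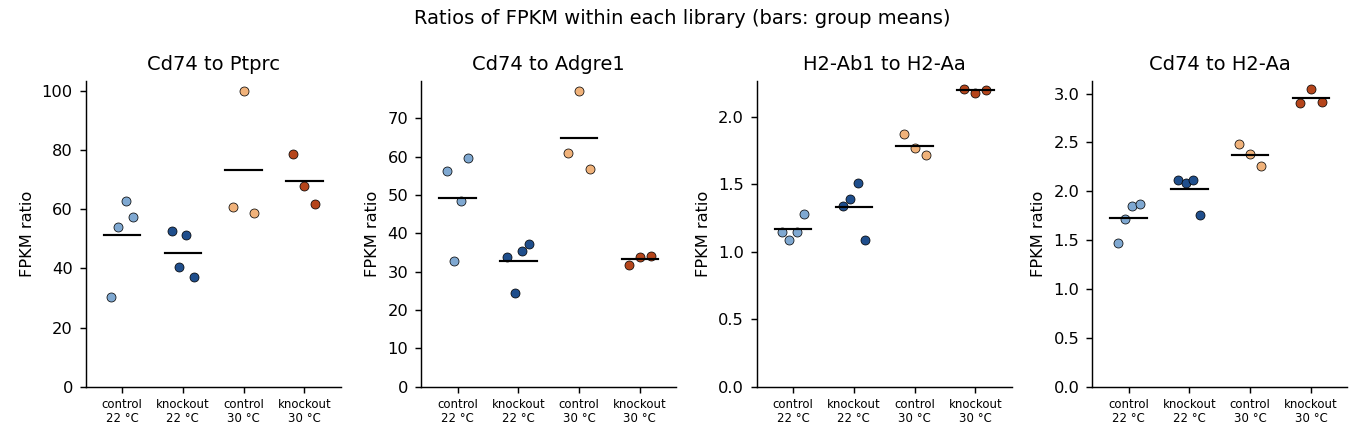
Ratios of FPKM within each library, with 1 point per mouse and bars at group means: Cd74 to Ptprc, Cd74 to Adgre1, H2-Ab1 to H2-Aa and Cd74 to H2-Aa. At 30 °C the genotypes overlap for Cd74 to Ptprc, knockouts lie lower for Cd74 to Adgre1 (31.8 to 34.0 against 56.7 to 77.1), and they lie higher for H2-Ab1 to H2-Aa (2.18 to 2.21 against 1.72 to 1.87).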

How the data were processed

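The authors deposited gene values as FPKM for 14 animals and 35275 Ensembl genes. The genome build is mm9 per the submitters' processing notes, and the aligner, counter, annotation and use of strand are not given in the sources used here. Near-identical or overlapping genes, such as H2-DMb1 and H2-DMb2, may therefore share reads. Symbols came from a gene name table (34490 IDs matched) and promoter windows from RefSeq GRCm38.p6. Whole reads were recovered from the FPKM steps: 98.1% of 24190 genes above 0 gave whole reads in every library (tolerance 0.03 reads). Read numbers and limits cover counting error only.

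Groups came from genotype and temperature in the labels. Libraries were scaled by the median ratio over 10021 nuclear genes (factors 0.822 to 1.2), so that mitochondrial transcripts did not enter the factors. Levels of mitochondrial transcripts were not examined here. Genes reaching 1 FPKM in 3 or more animals were kept. Values were analysed as log2(scaled FPKM + 1) with limma 3.58.1 (R 4.3.3; trend), 1 mean per group over all 14 animals, and Benjamini-Hochberg adjustment over 13079 genes per comparison. Ratios were compared by exact two-sided permutation (scipy 1.17.1), adjusted over each family of 28, 28 and 24 tests. Tested on simulated data for the comparison at 30 °C (12558 genes), the fit called 83.8% of 99 genes changed by 1 on the log2 scale. It called 100% of 98 changed by 2 and 0 in the wrong direction, and 4.74% of calls were unchanged genes. The simulated spread between animals was the same for all genes and smaller than that of the members at 30 °C. These shares therefore do not give the power for the members.

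The 7 genes are named in full. From each of the 15 other lists at most the 4 genes with the largest change between genotypes at 30 °C and the defining markers are named, and Ctsl, H2-Ob, Ptprc in its ratios and other single members of a small count were named after their values were seen. Members and lists were chosen with earlier results of these data known. No block was fitted, because animals carry individual identifiers and no pairing. Fits of the lists, correlations and ratios without knockout 3 and without control 3 at 30 °C were added after seeing the data.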

Additional observations from a re-analysis of the deposited data

Results flagged for a closer look

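Among 14 groups of 4 animals checked (7 genes in controls and in knockouts at 22 °C), 2 held an animal far from the others by Dixon's criterion, which chance flags in about 1 of 20 groups. Both were knockout 2 at 22 °C. Its Cd74 level was 127 FPKM, against 72.2 to 75.0 FPKM in the other 3 knockouts, a gap of 0.949 of the range where the limit is 0.829. Its Ciita level was 1.38 FPKM, against 0.55 to 0.645 FPKM in the others, a gap of 0.885 of the range. The same animal had the highest FPKM of its group for the other 5 members and for Ptprc (3.13 FPKM) and Adgre1 (5.17 FPKM). Their part in these values was not tested.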

How the results depend on the processing

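The count of members called between genotypes at 30 °C was 5, and it was 3 with no filter on low values, 0 when only the groups compared were fitted, and 0 to 7 without each animal in turn. It was 7 both on FPKM as deposited and after equal totals of nuclear genes. FPKM as deposited moved the median log2 fold change of all genes to 0.307 and that of the members to 1.54, and 93.6% of all calls were then higher in knockouts, against 62.5% with the scaling used, 48.7% after quantile normalization and 84.5% after equal totals. Between genotypes at 22 °C, 138 of 139 estimates kept their direction and 0 passed. The exception was H2-Aa, whose estimates without each animal in turn were -0.01 to 0.34. Of 132 estimates between temperatures in controls, 10 were no longer called (8 of Ciita and 2 of H2-Aa), and 125 of 125 in knockouts and 174 of 174 for the difference between temperatures stayed on their side of the threshold. No paired analysis was possible because the labels give no shared replicate numbers. With 3 animals a group at 30 °C, precision is limited by their number, and depth limits Ciita in 22 °C controls (23 to 56 reads). Leaving out an animal removes samples and so lowers power; the cause of the other differences was not tested.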
